A study of Mus musculus with 32 samples.

Results

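Keratins are the intermediate filament proteins of epithelial cells, and this account follows 10 keratin genes of the bladder lining, the urothelium, through age and senolytic treatment. The genes are Krt5, Krt14, Krt15 and Krt17, which mark basal urothelial cells, and Krt13, Krt7, Krt8, Krt18, Krt19 and Krt20, taken here as the luminal set. They were chosen by symbol and not by their values, though earlier results of these data were known at that time. Each of the 10 symbols matched 1 of the 32285 genes in the count table. RNA was sequenced from 32 whole bladders of female C57BL/6 mice, and each library came from a single bladder. Untreated mice fell into a young group of 6 at 2 months of age, a middle-aged group of 5 at 10 months and an old group of 6 at 26 months. The other 3 groups were also 26 months old and were gavaged with water (n = 5), with vehicle (n = 4) or with D + Q (n = 6). Vehicle was 60% Phosal 50 PG, 30% PEG-400 and 10% ethanol. D + Q was dasatinib at 5 mg/kg/day and quercetin at 50 mg/kg/day in that vehicle, a drug pair used to remove senescent cells, given on 3 days of each month from 21 to 26 months of age. The same gavage days and ages are recorded for the mice given water and for those given vehicle. The study's methods name only D + Q and vehicle where they describe the 3 days of gavage.

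Keratin filaments are built from pairs of a type I and a type II chain. In the urothelium the proliferative basal layer that sits on the basement membrane is marked by Krt5. The polyploid umbrella cells that face the urine are marked by Krt20. Krt7, Krt8, Krt18 and Krt19 are counted here as luminal. Whether basal cells also make them cannot be read from whole bladder RNA. Krt14 labels a small subset of basal cells, Krt17 is best known from injured and squamous epithelium, and Krt13, whose type II partner is Krt4, is used as a marker of intermediate urothelial cells. In whole bladder RNA, fewer cells of a layer and less RNA per cell cannot be told apart, and a keratin made by more than 1 cell type is read as a sum.

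On mm10, the type I genes apart from Krt18 lie within a cluster on chromosome 11. Krt20 spans 99428403 to 99438150, Krt13 spans 100117327 to 100121566, Krt15 spans 100131758 to 100135928, Krt19 spans 100140810 to 100148665, Krt14 spans 100203162 to 100207548 and Krt17 spans 100256217 to 100261029, all on the minus strand. The type II genes lie on chromosome 15, where Krt7 spans 101411043 to 101430313 on the plus strand, Krt5 spans 101707070 to 101712898 and Krt8 spans 101996698 to 102004482, both on the minus strand. Krt18, the type I partner of Krt8, sits beside it at 102028180 to 102032027 on the plus strand. Exons of Krt7 overlap those of Gm671, and exons of Krt8 overlap those of Gm36026, in both cases on the other strand. The library kit keeps strand, but the setting used for counting is not given in the sources used here, so reads of these 2 keratins and of their antisense neighbours may not be fully separated.

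RefSeq promoter windows on GRCm38.p6 were found for 7 of the 10 genes and not for Krt15, Krt17 and Krt19. The 60 bases before the annotated start are shown for the basal marker Krt5, for 3 of the 4 luminal keratins that varied together across bladders (Krt7, Krt8 and Krt18, with no window found for Krt19) and for the umbrella cell marker Krt20, each 5′ to 3′ on the strand of the gene. Capitals mark the TATA-like letters ATAAAAG, a motif chosen after the sequences had been read.
Krt5, chr15:101712906-101712965, minus strand: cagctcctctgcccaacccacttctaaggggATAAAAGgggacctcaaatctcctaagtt
Krt7, chr15:101412343-101412402, plus strand: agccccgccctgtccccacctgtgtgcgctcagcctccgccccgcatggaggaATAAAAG
Krt8, chr15:102004343-102004402, minus strand: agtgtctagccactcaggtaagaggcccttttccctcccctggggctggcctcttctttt
Krt18, chr15:102028156-102028215, plus strand: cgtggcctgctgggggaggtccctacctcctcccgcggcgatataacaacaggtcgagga
Krt20, chr11:99438154-99438213, minus strand: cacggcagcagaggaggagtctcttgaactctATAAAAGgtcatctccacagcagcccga

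ATAAAAG began 29 bases before the start in Krt5, 28 bases before it in Krt20 and 7 bases before it in Krt7. It also began 29 bases before 1 of the 2 annotated starts of Krt13. No match on either strand was found in the 250 bases before the annotated RefSeq start of Krt8, Krt18 or Krt14. The printed bases of Krt7 and Krt8 lie inside the gene spans given above. So do the last bases of the Krt14 window, at 100206031 to 100206090, and those before the other annotated start of Krt13. The printed bases of Krt18 begin before its span and end inside it. The bases before the outer 5′ ends of the Krt14 and Krt7 spans were not searched. For every gene the result covers only the annotated RefSeq start. Among all 32851 windows in the RefSeq table, 4.83% held these letters on either strand within the same 250 bases. A match describes the letters and not a bound factor.

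The summed counts per bladder ranged from 15088372 to 52650259, and 3 counts in a bladder, taken as the floor of detection, corresponded to 0.0572 to 0.205 CPM (counts scaled to library size with TMM factors). The 10 keratins together took 0.334% to 0.456% of all counts of a bladder. Of those keratin counts, 96.8% to 98.5% came from 6 genes, Krt5, Krt15, Krt7, Krt8, Krt18 and Krt19. The keratin RNA of the whole bladder was thus a mixture of 2 basal and 4 luminal transcripts, with every other member a minor part.

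Levels of different genes were compared per exon length, as TPM (length-scaled counts, set to the same total in each bladder). Over the 32 bladders Krt18 had the highest level, 1516 ± 151 TPM (SD, n = 32), followed by Krt15 at 1321 ± 190 TPM and Krt8 at 925 ± 62.9 TPM. Krt19 was at 871 ± 101 TPM and Krt5 at 819 ± 114 TPM. These 5 keratins were of 1 order of magnitude, and neighbours in this order were not separated in each bladder: Krt18 exceeded Krt15 in 27 of 32 bladders, Krt8 exceeded Krt19 in 27 and Krt19 exceeded Krt5 in 24. Krt15 exceeded Krt8 in all 32 bladders.

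Krt7 followed at 483 ± 46.3 TPM and Krt20 at 159 ± 21.5 TPM, and each was below the gene before it in all 32 bladders. The place of Krt7 depends on the length used. Its summed exon length is 7049 bases and its longest coding transcript in GENCODE M21 is 4094 bases, and with the latter lengths Krt7 stood at 831 ± 79.6 TPM, above Krt20 in all 32 bladders and close to Krt5, which it exceeded in 20. Krt19 moved to 1025 ± 119 TPM, above Krt8 in 29 of 32 bladders. Krt20, made by the umbrella cells, remained well below Krt7, Krt8, Krt18 and Krt19 under both lengths.

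Krt14, Krt13 and Krt17 stood apart at the bottom, with means of 2.27 ± 3.23, 0.625 ± 0.283 and 0.601 ± 0.508 TPM. Krt14 had 2 to 314 counts per bladder, Krt13 had 2 to 30 and Krt17 had 0 to 29. Krt17 was at or under 3 counts in 8 of 32 bladders, Krt13 in 3 and Krt14 in 2. All 3 are thus near the detection floor, and the gap between Krt5 and its type I basal partner Krt14 was over 2 orders of magnitude. Krt15, another type I basal keratin, was the abundant one. Krt14 and Krt17 are close paralogues of each other and of Krt16, and how the counting treated reads that match more than 1 of them is not given in the sources used here, so their counts are uncertain in that respect.

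**Figure D1:**
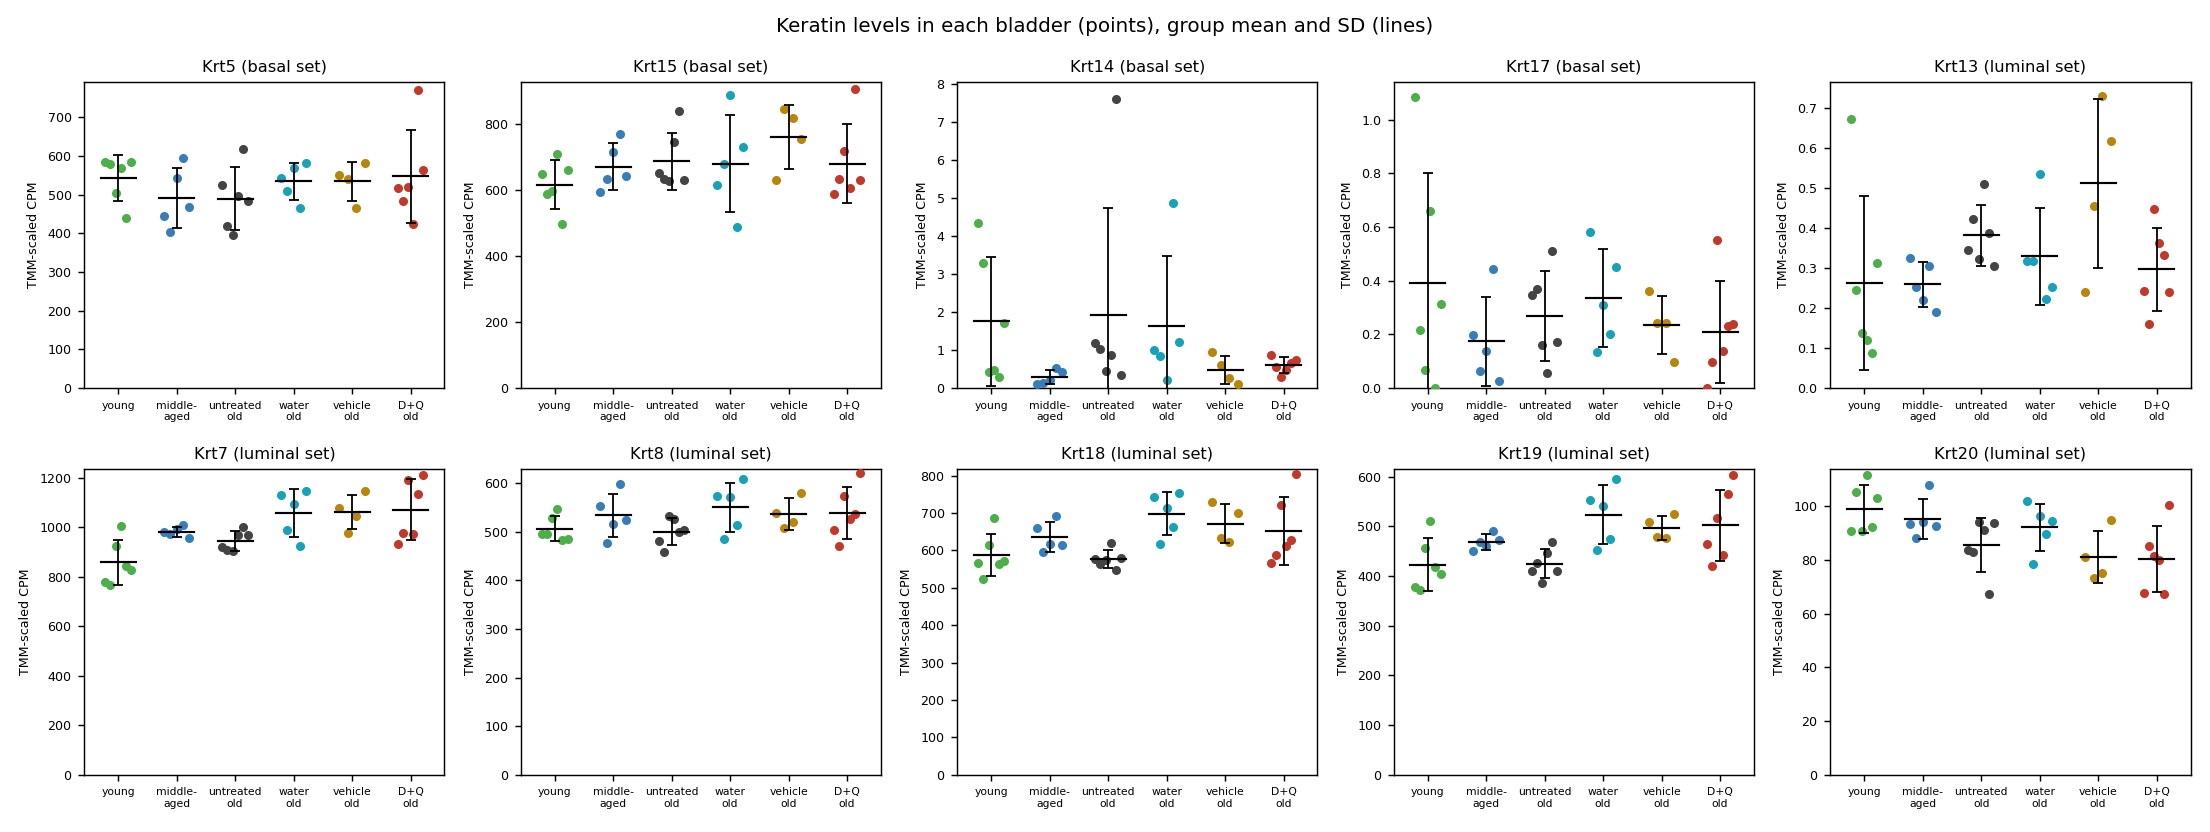
Levels of the 10 keratins in TMM-scaled CPM (y axis, linear and from 0) in each of the 32 bladders (points) by group (x axis), with the group mean and SD as lines and bars (bars are cut at 0). The groups overlap for most keratins, and the single high points of Krt14 are untreated old replicate 5 (7.62 CPM) and water-treated old replicate 4 (4.86 CPM).

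The first comparison asks how the keratins change from youth to middle age. Of 16754 genes tested with edgeR's quasi-likelihood test, 1811 were called at an adjusted p under 0.05, which is 10.8%. Of the 10 keratins 8 had counts enough to be tested, and 1 was called, Krt14, which fell. Krt13 and Krt17 did not pass the filter on low counts. In young bladders Krt14 ranged from 0.291 to 4.34 CPM with a median of 1.09 CPM. In the 5 middle-aged bladders it was 0.0978, 0.127, 0.219, 0.527 and 0.407 CPM. The ranges overlapped, since 3 of the 6 young bladders were below 0.5 CPM, and the log2 fold change was -2.66 (SE 0.71, edgeR adjusted p = 0.0329). The call was lost when any 1 of young replicates 1, 2 and 6 or of middle-aged replicates 1, 2, 3 and 5 was left out (adjusted p = 0.0598 to 0.0825), with a log2 fold change between -3.01 and -2.20 over all bladders left out in turn.

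Of the abundant basal keratins, Krt5, the main type II chain of the basal layer, had a median of 574 CPM in the young group and of 467 CPM in the middle-aged group, with a log2 fold change of -0.14 (95% interval -0.35 to 0.08). Krt15 differed by 0.13 in the other direction (interval -0.06 to 0.33). Neither was called, and the ranges of both groups overlapped. Among the luminal keratins Krt7 came closest to the threshold. It ranged from 768 to 1006 CPM in young bladders with a median of 834 CPM, and it was 982, 971, 991, 1011 and 958 CPM in middle-aged bladders, a log2 fold change of 0.21 (SE 0.07, edgeR adjusted p = 0.0772). Krt8, Krt18 and Krt19 had log2 fold changes of 0.09, 0.13 and 0.16, and Krt20 of -0.04, with adjusted p of 0.20 or more in the edgeR test. Without young replicate 4, which had the highest Krt7 and Krt19 of its group, Krt7 (0.25, adjusted p = 0.0141) and Krt19 (0.21, adjusted p = 0.0315) were called higher. Of 16 pan-epithelial genes such as Epcam and Cdh1, 6 rose and none fell (10.8% of all genes were called), with a median log2 fold change of 0.23 beside 0.00278 over all genes tested. When counts were scaled to those 16 genes, the median of all genes moved to -0.24, Krt7, Krt8, Krt18, Krt19 and Krt15 turned to between -0.15 and -0.02, and Krt5 (-0.39) and Krt20 (-0.28) were called lower, with edgeR adjusted p = 0.0409 and 0.0289. The fibroblast list moved with this comparison: 8 of its 10 genes were lower in middle-aged bladders, beside 10.8% called over all genes, and its summed level was 15880 to 29416 CPM among young bladders and 10430 to 13233 CPM among middle-aged ones. Its part in the keratin values was not tested.

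The second comparison asks what changes from middle age to old age. Of 17156 genes 4110 were called, 24.0%, and of 9 keratins tested 3 were called. Krt14 was higher and Krt18 and Krt19 were lower in untreated old bladders, and Krt17 was not tested. In old bladders Krt14 was lowest at 0.343 CPM, had a median of 0.947 CPM and was highest at 7.62 CPM, against 0.0978 to 0.527 CPM in middle-aged bladders. The ranges overlapped in 2 old bladders, and the log2 fold change was 2.76 (SE 0.87, edgeR adjusted p = 0.0354). Untreated old replicate 5 carried much of the size: without it the log2 fold change of Krt14 was 1.42 (adjusted p = 0.0464). Leaving out middle-aged replicate 1, 2, 3 or 5 ended the call (adjusted p = 0.0616 to 0.0779). From young to old, Krt14 differed by 0.09 (95% interval -1.63 to 1.81), so over the whole span no difference was detectable at this depth. Without untreated old replicate 5 that value was -1.24 (adjusted p = 0.207).

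Krt18 and Krt19, the type I keratins of simple and luminal epithelium, fell by 0.14 each on the log2 scale (SE 0.05 and 0.05, edgeR adjusted p = 0.0407 for both). Krt18 was 659, 596, 616, 693 and 615 CPM in middle-aged bladders and ranged from 549 to 619 CPM in old bladders with a median of 576 CPM. Krt19 was 449, 468, 461, 491 and 472 CPM in middle-aged bladders and ranged from 387 to 468 CPM in old bladders with a median of 417 CPM. The ranges overlapped for both genes. Their partners Krt8 and Krt7 had log2 fold changes of -0.09 and -0.06 and were not called, nor was Krt20 at -0.16 (95% interval -0.33 to 0.02). Both calls were small and were lost when any 1 of several bladders was left out. The call of Krt18 ended without middle-aged replicate 1 or 4 or untreated old replicate 1, 2, 3, 5 or 6 (adjusted p = 0.0547 to 0.0826), and that of Krt19 without middle-aged replicate 2, 3, 4 or 5 or untreated old replicate 1, 2, 3 or 6 (adjusted p = 0.0635 to 0.0853).

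Krt18 and Krt19, which were 2 of the 6 luminal keratins, fell beside other epithelial genes. Of the 16 pan-epithelial genes 10 fell and none rose (24.0% of all genes were called), with a median log2 fold change of -0.13 beside -0.00471 over all genes. Of the 5 uroplakins, the plaque proteins of umbrella cells, 3 fell, namely Upk2 (-0.23), Upk3a (-0.19) and Upk1a (-0.15). Scaled to the pan-epithelial genes, Krt18 and Krt19 had log2 fold changes of -0.0016 and -0.0081 and the median of all genes moved to 0.13. Krt13 was called higher under that scaling alone, at 0.69 (edgeR adjusted p = 0.0298), with 7 to 11 counts per middle-aged bladder and 10 to 18 per old bladder. Markers of other cells moved with this comparison: 9 of 10 B cell, 10 of 10 T cell and 8 of 10 macrophage genes were higher in old bladders and none was lower, 4 of 10 smooth muscle and 1 of 10 fibroblast genes were lower and none higher, and 3 of 10 endothelial genes were lower and 1 higher. Beside the 24.0% called over all genes, the fibroblast share was below that background, and the summed B cell list was 15.2 to 23.8 CPM in middle-aged and 116 to 312 CPM in old bladders. Their part in the keratin values was not tested.

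Over the whole span from young to old, 4229 of 16873 genes were called, 25.1%, and none of the 9 keratins tested was. DESeq2 also called none of them, limma on the deposited values called 1 and 1 was under an unadjusted p of 0.05. In both cases that was Krt20, the umbrella cell keratin, which ranged from 90.8 to 112 CPM in young bladders with a median of 97.7 CPM and from 67.2 to 94.1 CPM in old bladders with a median of 87.5 CPM. Its log2 fold change was -0.21 (95% interval -0.39 to -0.04, edgeR adjusted p = 0.0763, limma adjusted p = 0.0435), and the ranges overlapped. Krt5 had a log2 fold change of -0.15 (interval -0.38 to 0.08), Krt15 of 0.16 (interval -0.04 to 0.36), Krt7 of 0.14 (interval -0.00148 to 0.28) and Krt13 of 0.48 (interval -0.37 to 1.34). Without young replicate 1 Krt13 was called higher (1.01, adjusted p = 0.0456), and without young replicate 4 Krt7 was (0.19, adjusted p = 0.0234). Krt8, Krt18 and Krt19 lay between -0.02 and 0.01, with intervals that reached no further than -0.16 and 0.17. The 3 comparisons among ages share groups and are not independent of each other.

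**Figure D2:**
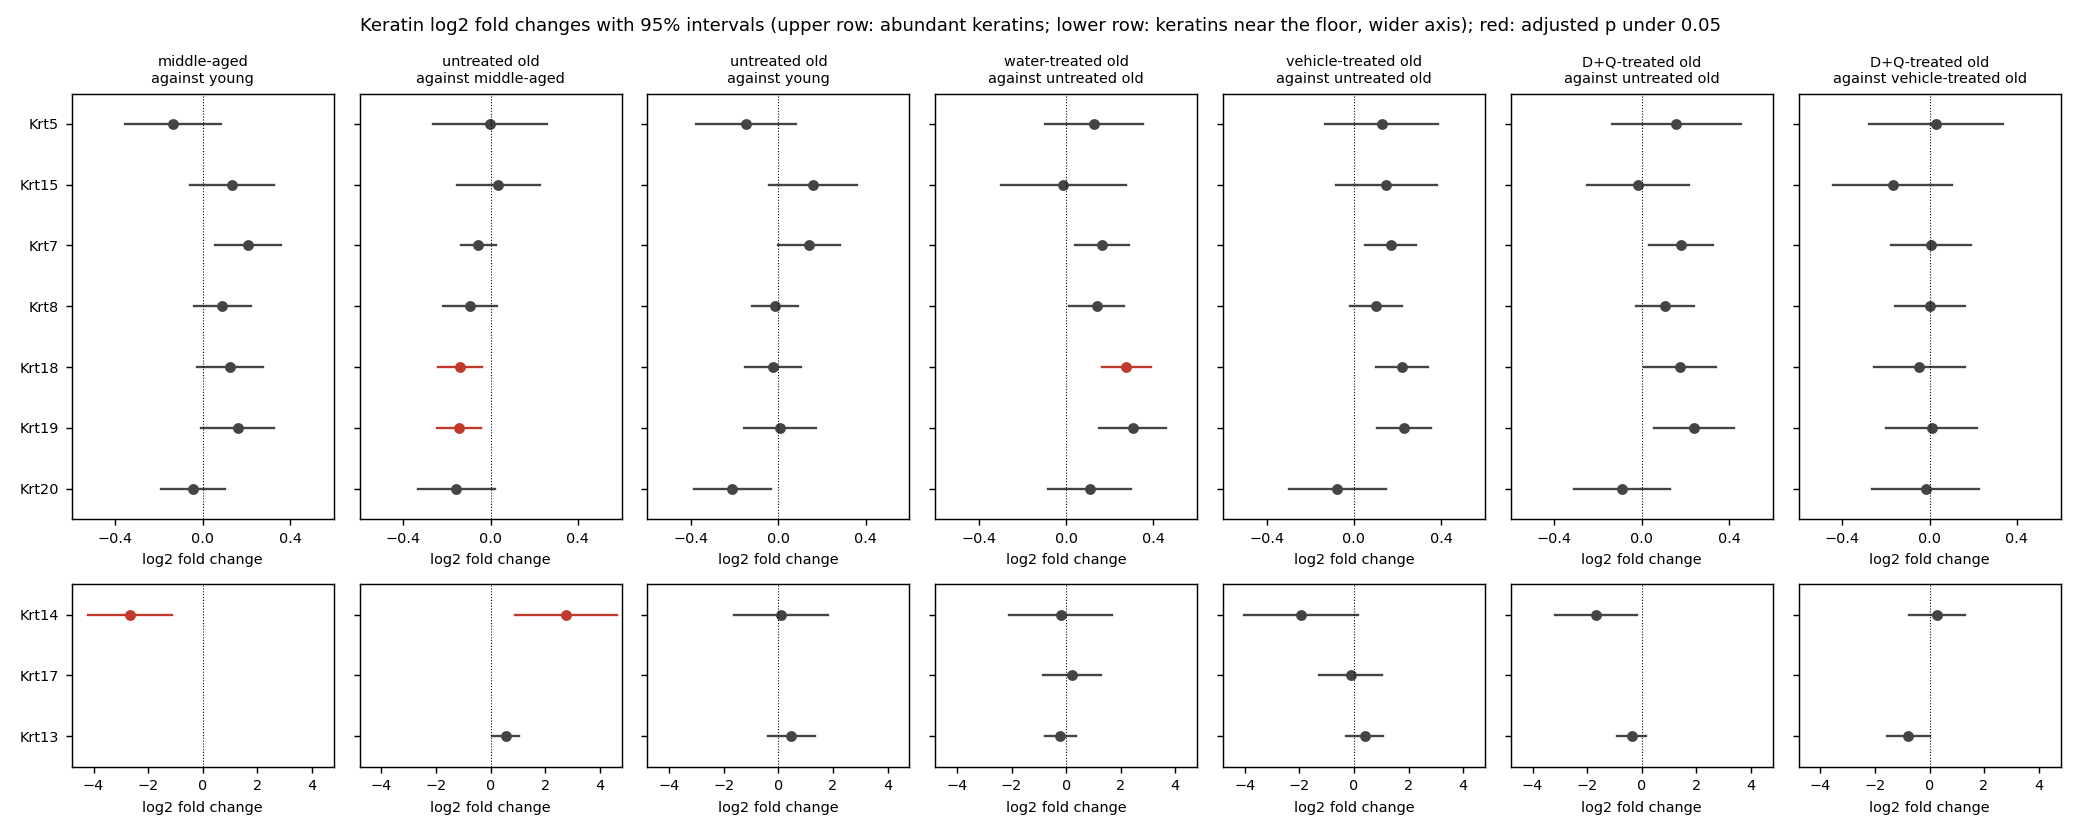
Log2 fold changes of the tested keratins in the 7 comparisons, with points for the estimate and lines for the 95% interval. The upper row holds the 7 abundant keratins and the lower row, on a wider axis, Krt14, Krt17 and Krt13, with red for an edgeR adjusted p under 0.05. Red marks are Krt14 in middle-aged against young bladders, Krt14, Krt18 and Krt19 between middle and old age, and Krt18 in water-treated against untreated old bladders.

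Gavage and drug were examined in old bladders, first against the untreated old group, which the next 3 comparisons share. In water-treated old bladders 173 of 17250 genes were called, 1.0%, and of 10 keratins tested 1 was called, Krt18. Krt18 was 744, 617, 713, 663 and 753 CPM in water-treated bladders and 549 to 619 CPM in untreated old bladders. A single water-treated bladder lay within the untreated range, and the log2 fold change was 0.28 (SE 0.05, edgeR adjusted p = 0.028). Krt19 behaved alike in size without passing, at 554, 453, 541, 474 and 596 CPM against 387 to 468 CPM (log2 fold change 0.30, SE 0.07, edgeR adjusted p = 0.0654, and 0.0358 without water-treated old replicate 2). Krt7 had a log2 fold change of 0.16 and Krt8 of 0.14. The call of Krt18 held without untreated old replicate 4 or water-treated old replicate 2, and without any 1 of the other 9 bladders it ended (adjusted p = 0.0512 to 0.101).

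In vehicle-treated old bladders none of 17440 genes was called, 0.00%, although 1464 were under an unadjusted p of 0.05 and DESeq2 called 132. Krt18 was 730, 634, 623 and 701 CPM, and Krt19 was 509, 478, 475 and 525 CPM. In both genes the 4 vehicle-treated bladders lay above all 6 untreated old bladders. Their log2 fold changes were 0.22 (SE 0.05) and 0.23 (SE 0.06) with an edgeR adjusted p of 0.329 for both, and DESeq2 called both higher (adjusted p = 0.013 and 0.0208). Krt7 had a log2 fold change of 0.17 (95% interval 0.05 to 0.29), Krt8 of 0.10 (interval -0.02 to 0.22) and Krt20 of -0.08 (interval -0.30 to 0.15).

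In D + Q-treated old bladders none of 17037 genes was called against untreated old bladders, 0.00%, with 2200 under an unadjusted p of 0.05 and 185 called by DESeq2, none of them a keratin. Krt19 ranged from 420 to 603 CPM with a median of 490 CPM, and its log2 fold change was 0.24 (95% interval 0.06 to 0.42, edgeR adjusted p = 0.32). Krt7 ranged from 933 to 1213 CPM with a median of 1056 CPM and had a log2 fold change of 0.18 (interval 0.03 to 0.33). Krt18 also stood at 0.18 (interval 0.01 to 0.34) and Krt8 at 0.11 (interval -0.03 to 0.24). Side by side, Krt18 was 0.28, 0.22 and 0.18 above untreated old bladders with water, vehicle and D + Q, Krt19 was 0.30, 0.23 and 0.24 above, and Krt7 was 0.16, 0.17 and 0.18 above. These 3 sets of values are set against the same 6 untreated old bladders. Pan-epithelial genes had medians of 0.09, 0.05 and 0.11 in the same comparisons, with 1 of 16 called in any of them (Epcam with water, 0.27), and after scaling to them Krt18 with water stood at 0.18 and Krt19 at 0.21. Their part in the keratin values beyond this scaling was not tested.

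Krt14 varied most among the old groups and was called in none of these comparisons. It was 0.939, 0.59, 0.268 and 0.0952 CPM in vehicle-treated bladders, 1.005, 0.848, 0.197, 4.86 and 1.21 CPM in water-treated bladders, and 0.275 to 0.876 CPM with a median of 0.602 CPM in D + Q-treated bladders. Its log2 fold change was -1.69 (95% interval -3.19 to -0.18, edgeR adjusted p = 0.356) with D + Q, -1.95 (interval -4.03 to 0.13) with vehicle and -0.21 (interval -2.08 to 1.67) with water. Each of these values leaned on untreated old replicate 5, and without it they were -0.35, -0.63 and 1.12. Without water-treated old replicate 4 the value with water was -1.25. Krt17 was tested with water (0.22, interval -0.86 to 1.29) and with vehicle (-0.12, interval -1.27 to 1.03).

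The comparison that isolates the drugs is D + Q against vehicle. None of 17267 genes was called, 0.00%, with 722 under an unadjusted p of 0.05 and 11 called by DESeq2, none of them a keratin. Krt5 was 551, 541, 464 and 581 CPM with vehicle, and with D + Q it ranged from 425 to 772 CPM with a median of 519 CPM. The intervals of the log2 fold change were -0.28 to 0.34 for Krt5, -0.44 to 0.10 for Krt15, -0.17 to 0.19 for Krt7, -0.16 to 0.16 for Krt8, -0.25 to 0.16 for Krt18, -0.20 to 0.22 for Krt19 and -0.26 to 0.23 for Krt20. Krt20 was 81, 73.4, 75.2 and 95.1 CPM with vehicle and 67.3 to 100.4 CPM with a median of 80.6 CPM with D + Q, so the groups overlapped throughout. Krt13 had a log2 fold change of -0.78 (interval -1.57 to 0.02), on 10 to 30 counts per vehicle-treated and 5 to 13 per D + Q-treated bladder.

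To set basal against luminal keratins within a bladder, the mean log2(CPM + 0.1) of Krt5, Krt14, Krt15 and Krt17 was reduced by that of the 6 luminal genes. This score is a description and carries no p. It was -2.66 ± 0.62 (SD, n = 6) in young, -3.37 ± 0.33 (n = 5) in middle-aged, -2.77 ± 0.60 (n = 6) in untreated old, -2.81 ± 0.34 (n = 5) in water-treated, -3.19 ± 0.48 (n = 4) in vehicle-treated and -3.07 ± 0.18 (n = 6) in D + Q-treated old bladders. The score was lowest in middle-aged bladders, by 0.71 from young and 0.60 from untreated old ones, with SDs pooled over each pair of groups of 0.50 and 0.48. Without untreated old replicate 5 the second difference was 0.39. With a pseudocount of 1 in place of 0.1 the differences were -0.37 and 0.32. It gives each gene the same weight, so Krt14 and Krt17, which are near the floor, move it as much as Krt5 and Krt15 do.

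With summed CPM, which the abundant genes fill, the log2 ratio of basal to luminal keratins was -1.09 ± 0.19 in young, -1.23 ± 0.14 in middle-aged, -1.11 ± 0.16 in untreated old, -1.27 ± 0.18 in water-treated, -1.14 ± 0.16 in vehicle-treated and -1.22 ± 0.23 in D + Q-treated bladders. The differences among ages shrank to -0.14 and 0.12 on this scale, less than the SD within the young and the untreated old groups. The ratio of Krt5 to Krt20 in CPM, basal layer against umbrella cells, was 5.50 ± 0.56 in young and 5.13 ± 0.50 in middle-aged bladders. It was 5.89 ± 1.76 in untreated old, 5.82 ± 0.54 in water-treated, 6.61 ± 0.60 in vehicle-treated and 7.02 ± 2.33 in D + Q-treated old bladders. In the 2 groups with the largest SD a single bladder lay far up, at 9.21 in untreated old replicate 5 and at 11.5 in D + Q-treated old replicate 5.

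**Figure D3:**
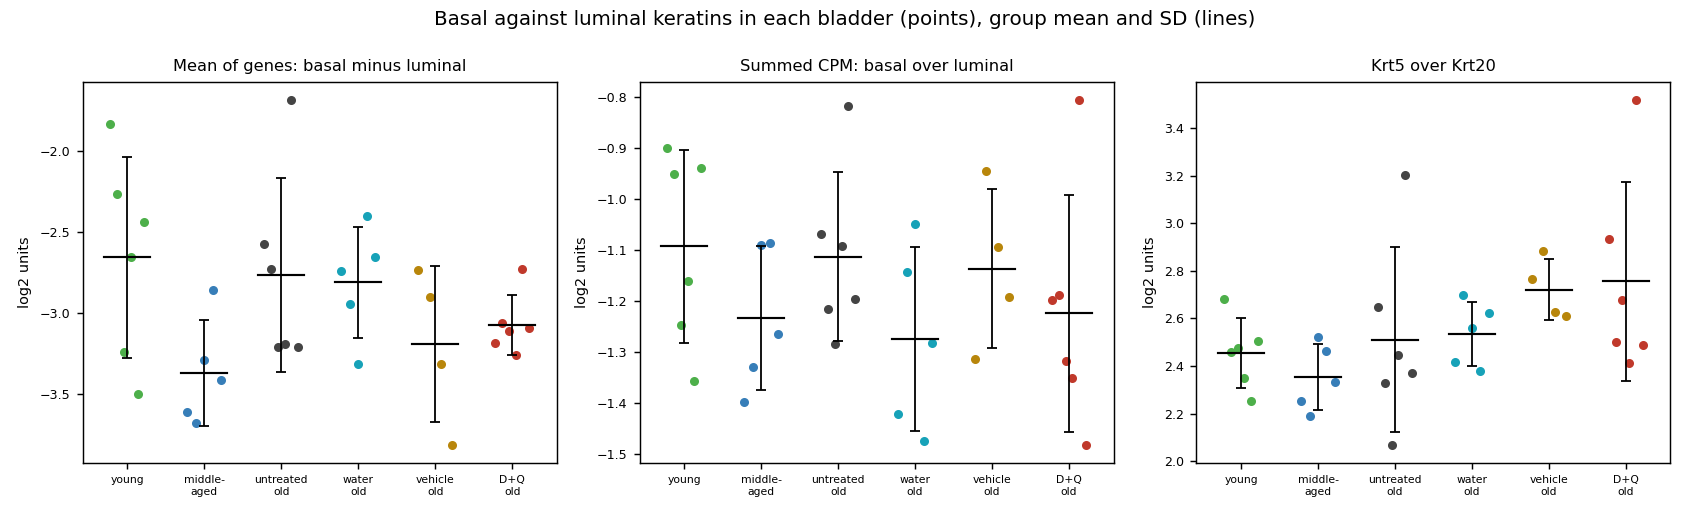
Basal against luminal keratins in each bladder (points), with group mean and SD, in log2 units on the y axis: the mean of genes (left), summed CPM (middle) and Krt5 over Krt20 (right). The group means of the left plot range from -3.37 to -2.66 and those of the middle plot only from -1.27 to -1.09.

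Type I and type II chains assemble in equal amounts, and their transcripts were summed for comparison. The TPM of the 7 type I members exceeded that of the 3 type II members 1.74 ± 0.09 fold (SD, n = 32), and 1.58 ± 0.07 fold with the longest coding transcripts as lengths. The ratio ranged in group mean from 1.65 in young to 1.82 in vehicle-treated bladders. Krt4, a type II chain outside the 10, had 85.6 to 193 CPM and a mean of 200 TPM by summed exon length. It is not in the type II sum, and counting it would lower the ratio. The ratio therefore describes the 10 chosen members only.

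Whether keratins vary together from bladder to bladder was examined after each gene's log2(CPM + 0.1) had been centred on its group mean, so that group differences play no part. All 10 genes of a bladder were read from the same library, so its depth and its share of epithelium enter every pair. Krt7 and Krt19 had the highest r of all 45 pairs, 0.89 (Spearman's rho 0.90), and Krt8 and Krt18, the classical simple epithelial pair, had 0.84 (rho 0.83). In both pairs the permutation p was 1e-05, the smallest that 100000 shuffles within groups can give, adjusted to 3e-05 over the 6 pairs tested. The 4 genes Krt7, Krt8, Krt18 and Krt19 had r from 0.70 to 0.89 with each other. Without the 2 bladders farthest from the median of the first gene, r was 0.85 for Krt7 with Krt19 and 0.81 for Krt8 with Krt18.

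Krt5 and Krt15, the abundant basal chains, had r = 0.68 and rho = 0.65 (permutation p = 8e-05 and 0.00034, adjusted 0.00016 and 0.00068), and r = 0.60 without the 2 farthest bladders. Krt5 and Krt14 were linked less closely, with r = 0.36 and rho = 0.38 (permutation p = 0.0348 and 0.0409, adjusted 0.0417 and 0.0491), and r = 0.41 without the 2 farthest bladders. Krt20 had r = 0.64 with Krt18, 0.36 with Krt7 and 0.22 with Krt19, given without a test. With Krt8 it had r = 0.59 and rho = 0.59 (permutation p = 0.00175 and 0.00154, adjusted 0.00262 and 0.00231), and r = 0.61 without the 2 farthest bladders. With Krt5 it had r = -0.04 and rho = 0.15 (permutation p = 0.862 and 0.433, the same after adjustment), and r = 0.13 without the 2 farthest bladders. Whether these values differ from each other was not tested. Krt14 had negative r with Krt7 (-0.37) and with Krt20 (-0.31), given without a test.

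**Figure D4:**
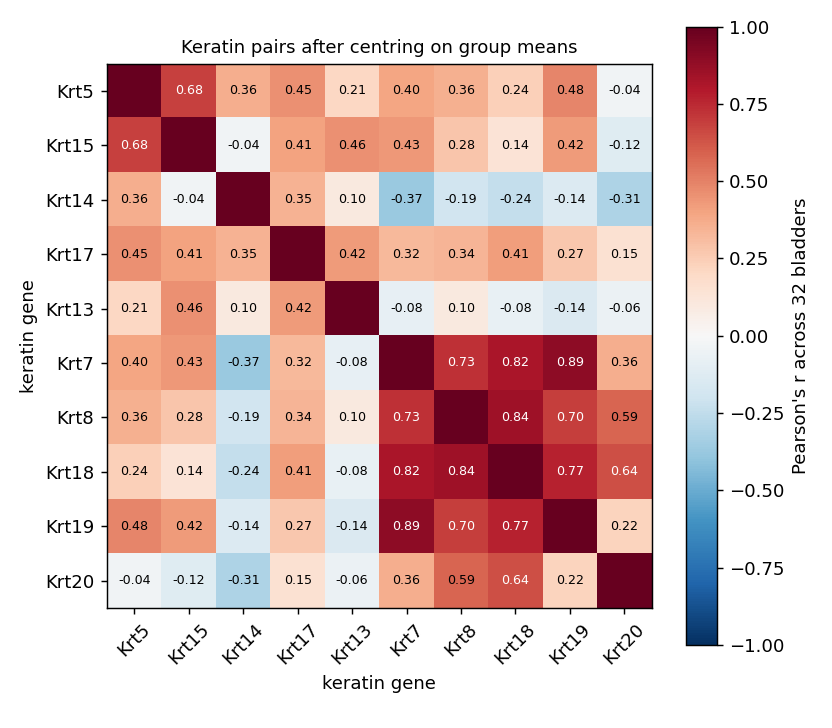
Pearson's r of each pair of keratins across 32 bladders after centring on group means, on a colour scale from -1 to 1. A block of high values holds Krt7, Krt8, Krt18 and Krt19 (0.70 to 0.89), and Krt5 pairs best with Krt15 (0.68).

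The genes whose centred pattern was most like that of Krt5, among 15055 genes with a mean of at least 1 CPM, were Eml1 (r = 0.76), Map4 (0.72), Ddr1 (0.72), Col17a1 (0.72) and Wfdc1 (0.71) over 32 bladders. Col17a1 encodes a hemidesmosome collagen that anchors basal cells. Those most like Krt20 were Paqr6 (r = 0.78), Gm13398 (0.77), Ndrg2 (0.73), Upk2 (0.73) and Slc12a8 (0.71). Upk2 encodes a uroplakin of the umbrella cell surface. These are the highest values of a search over many genes and are given as a description.

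The bladders with high Krt14 were compared with markers of the mesothelium, the outer lining of the bladder wall. Its cells make simple keratins, a group to which Krt14, a basal keratin, does not belong. Krt14 was above 3 CPM in 4 bladders, untreated old replicate 5 (7.62), water-treated old replicate 4 (4.86), young replicate 1 (4.34) and young replicate 2 (3.28), and at most 1.70 CPM in the other 28. Mesothelin (Msln), singled out after the values had been seen, was at 38.6, 27.0, 36.7 and 30.6 CPM in those 4 bladders. In the other 28 it ranged from 10.1 to 33.4 CPM with a median of 18.8 CPM, so the high bladders took ranks 1, 6, 2 and 4 of 32. A sum was taken of 5 mesothelial markers, Msln, Wt1, Lrrn4, Muc16 and Gpm6a, leaving out keratins and Upk3b, which was listed with the uroplakins. Their summed level was 111, 92.2, 86.6 and 119 CPM in the same bladders, beside 51.5 to 101 CPM in the others, which are ranks 2, 7, 14 and 1 of 32. The other 4 markers did not order these bladders as Msln did. In young replicate 1, Wt1 was at 6.50 CPM and Lrrn4 at 9.46 CPM, ranks 32 and 31, and in water-treated old replicate 4 Lrrn4 and Gpm6a both took rank 21. By group that sum ranged from 64.0 to 119 CPM in young, 51.5 to 86.7 in middle-aged, 76.1 to 111 in untreated old, 69.2 to 94.0 in water-treated, 67.6 to 98.8 in vehicle-treated and 74.4 to 89.1 CPM in D + Q-treated bladders. All 5 markers were detected in every group, and 1 of them was called in any comparison, Gpm6a, which rose from middle to old age (0.45). Their part in the Krt14 values was not tested.

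**Figure D5:**
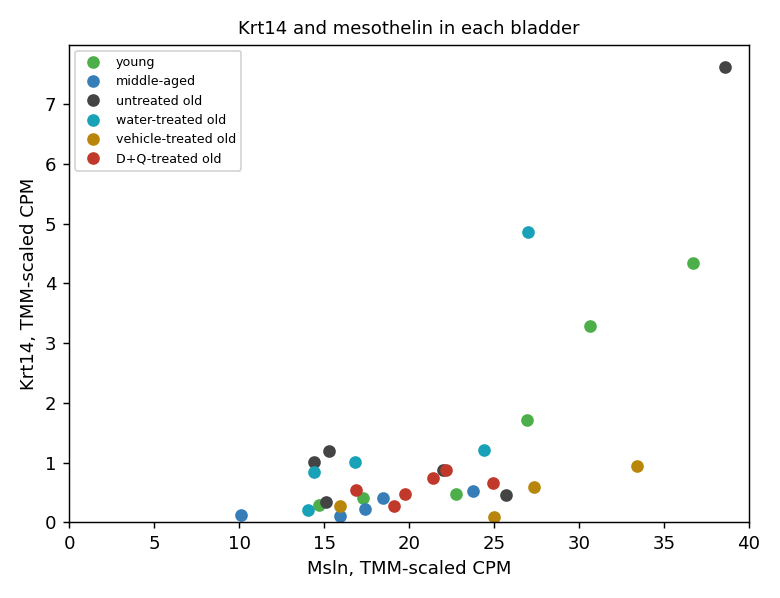
Krt14 (y axis) against Msln (x axis), both in TMM-scaled CPM on linear axes from 0, with a point for each of 32 bladders coloured by group. The 4 bladders above 3 CPM of Krt14 had 27.0 to 38.6 CPM of Msln, and the bladders ranked 3 and 5 for Msln had at most 1.70 CPM of Krt14. Msln was picked from 5 mesothelial markers after the values had been seen. The other 4 markers, not plotted, did not order these bladders as Msln did.

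Genes that work with the keratins were read as lists beside the medians of all genes, which lay between -0.00471 and 0.00278 on the log2 scale in the 7 comparisons. The share of all genes called was 10.8% from young to middle age, 24.0% from middle to old age and 25.1% from young to old, and the counts are to be read against it. From middle to old age the anchorage, desmosome, regulator and filament partner lists all had a smaller share called than that background. The filament partners were below it in all 3 age comparisons. The list of basal cell anchorage is wider than its name, since it also holds Ngfr and Trp63, the latter listed with the regulators too. Of its 12 genes, 1 rose and 3 fell from young to middle age. From middle to old age 1 of these genes rose and none fell, and from young to old 4 rose and 2 fell. Their median log2 fold changes were 0.00066, 0.09 and 0.08. From young to old, Ngfr of this list fell (-0.82, SE 0.22, edgeR adjusted p = 0.0146). Col17a1 (0.50, SE 0.12, adjusted p = 0.0088) and the laminin chain Lamb3 (0.44, SE 0.12, adjusted p = 0.0175) rose, while Krt5 was not called. In whole bladder RNA these changes cannot be assigned to basal cells. Of 10 desmosome and plakin genes tested, which tie keratins to cell junctions, 2 rose from young to middle age (median 0.14), 1 fell from middle to old age (median -0.04), and 2 rose and 1 fell from young to old with a median of 0.08. The last were Pkp3 (0.26), Dsg2 (0.13) and Pkp1 (-0.55).

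Of 13 regulators of keratin genes and urothelial fate, 3 rose and none fell from young to middle age with a median of 0.20, namely Klf5 (0.42), Notch1 (0.41) and Foxa1 (0.23). From middle to old age 2 fell and none rose with a median of -0.08, namely Rarg (-0.14) and Gata3 (-0.14), and from young to old 3 rose and 1 fell with a median of 0.10. Of 11 tested partners of keratin filaments 1 rose in each age comparison, Kdf1 (0.27), Pof1b (0.24) and Tchp (0.20), with medians between -0.00269 and 0.01. Of 12 tested squamous and cornified envelope genes, 1 rose and none fell from young to middle age, 1 rose and 3 fell from middle to old age and 1 rose and 3 fell from young to old, with medians of -0.03, -0.11 and -0.11. In the gavage and drug comparisons no gene of these 5 lists was called.

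The table holds 53 numbered keratin genes. Of the 43 outside the set, 23 had at most 3 counts in every bladder, 8 had a median of at least 1 CPM, led by Krt4 (119 CPM) and Krt80 (12.3 CPM), and 10 were tested in 1 comparison or more. None of 9 tested was called from young to middle age. From middle to old age Krt222 rose (2.00, SE 0.24, edgeR adjusted p = 1e-04), and Krt1 (-0.35, adjusted p = 0.04) and Krt10 (-0.25, adjusted p = 0.0342), the pair of the suprabasal epidermis, fell. From young to old Krt222 (1.55) and Krt23 (0.59) rose. These calls, among 9 tested in each age comparison, stand beside 10.8%, 24.0% and 25.1% of all genes called, and are not read as a trait of the keratin family. None was called with water, vehicle or D + Q.

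Markers of other cells that whole bladders hold were counted in the same fits. From young to old, where 25.1% of all genes were called, 9 of 10 fibroblast, 5 of 10 smooth muscle and 3 of 8 tested skeletal muscle genes fell and none rose, 6 of 10 endothelial genes fell and 1 rose, and 10 B cell, 10 T cell and 3 macrophage genes of 10 each rose and none fell. None of these lists had a called gene in the gavage and drug comparisons. Median log2 fold changes with D + Q against vehicle were -0.84 for B cell and -0.20 for T cell genes. Their part in the values of the keratins was not tested.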

How the data were processed

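The 10 keratins and the gene lists were chosen with earlier results of these data known. Bladders were grouped by the age and treatment labels. The authors deposited raw counts per gene, made from total RNA libraries by alignment to mm10 with STAR 2.7.3 and counting with Subread featureCounts, and with them the summed exon length of each gene in bases, the other unit the authors deposited. The second deposited table holds log2 values of length-scaled counts plus 1 and was used in 1 alternative. Symbols were found for 32158 of 32285 genes and not for 127.

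Counts were tested with edgeR 4.0.16 (R 4.3.3): TMM factors, filterByExpr, glmQLFit and glmQLFTest within each pair of groups, and Benjamini-Hochberg adjustment over all genes tested, with calls at an adjusted p under 0.05. Each SE was derived from the test, as the absolute log2 fold change over the square root of the quasi-likelihood F. The 95% intervals were built from that SE with the t distribution, and are approximate for genes with few counts. In simulated counts for middle-aged against young bladders with 16754 genes, of which 200 were changed, 84% of 1.5-fold and 100% of 2-fold changes were recovered, and for D + Q against vehicle with 17267 genes 83% and 100%. The simulated counts had the same spread for every gene, and the changed genes were drawn only from well-counted ones. These shares do not give the power for Krt13, Krt14 and Krt17 or for genes that vary more between bladders. Alternatives used DESeq2 1.42.0, limma 3.58.1, other filters and scalings, a replicate block and leaving out each bladder. CPM carries TMM factors, and TPM was computed from counts and lengths. Correlations used 100000 two-sided permutations within groups (scipy 1.17.1). Motifs were searched on both strands of RefSeq promoter windows (GRCm38.p6).

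Depth was 15088372 to 52650259 counts per bladder, and floors at single bladders cover counting error only. No 2 bladders of a group agreed within sampling noise. Each library came from a separate bladder and so from a separate mouse, and the p-values of the fits measure the spread between these mice. The text names all 10 keratins, from each list at most the 3 called genes with the largest change, every other keratin called, and the 5 genes most like Krt5 and Krt20. Doses, vehicle and schedule come from the study's methods.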

Additional observations from a re-analysis of the deposited data

Results flagged for a closer look

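Of 66 sets of bladders tested (10 keratins and the basal minus luminal score in 6 groups), 3 held a bladder apart from the rest of its group by Dixon's test, and chance alone marks about 1 set in 20. Krt14 in untreated old replicate 5 was 7.62 CPM, with the other 5 untreated old bladders between 0.343 and 1.19 CPM. Krt14 in water-treated old replicate 4 was 4.86 CPM, with the others between 0.197 and 1.21 CPM. The basal minus luminal score in D + Q-treated old replicate 5 was -2.73, with the others between -3.26 and -3.06, and that bladder also had the highest Krt5 (772 CPM) and Krt15 (906 CPM) of all 32.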

How the results depend on the processing

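The number of keratins called turned on the settings wherever a call was made. In middle-aged against young bladders it was 1 in the fit reported, 2 with DESeq2 (Krt14 and Krt7), 0 with at least 10 counts in every bladder (Krt14 was then not tested), 3 when scaled to epithelial genes, 0 with the replicate block by either number, and 0 to 3 on leaving out each bladder. Limma also called 1, but it was Krt7 (0.22, adjusted p = 0.0466) and not Krt14 (-2.09, adjusted p = 0.0745). In untreated old against middle-aged bladders it was 3, with 1 without a filter, 2 with at least 10 counts in every bladder (Krt14 was not tested), 2 when scaled to epithelial genes (Krt14 at 2.87 and Krt13), 2 with the replicate block (Krt14 and Krt18, with Krt19 at an adjusted p of 0.0511), 2 with the block by description number (Krt14 and Krt19, with Krt18 at an adjusted p of 0.0968), 1 with all 6 groups in a single fit and 1 to 3 on leaving out each bladder. In untreated old against young bladders it was 0, with 1 by limma on the deposited log2 values and 1 with the replicate block by either number (Krt20 in each) and 0 to 1 on leaving out each bladder. With water it was 1, with 2 by DESeq2, 0 without a filter, 0 by limma, 0 with the replicate block by either number, 0 with all 6 groups in a single fit and 0 to 2 on leaving out each bladder. With vehicle it was 0, with 2 by DESeq2. In both D + Q comparisons no setting called a keratin. The score difference moved with summed CPM to -0.14 for middle-aged against young and to 0.12 for untreated old against middle-aged bladders, and with a pseudocount of 1 to -0.37 and 0.32.

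Directions turned only for keratins that were not called in the fit reported. Scaled to epithelial genes, Krt15 (-0.11), Krt7 (-0.019), Krt8 (-0.15), Krt18 (-0.10) and Krt19 (-0.064) turned in middle-aged against young bladders, Krt5 (0.13), Krt7 (0.080) and Krt8 (0.044) in untreated old against middle-aged bladders, Krt14 (-0.12) and Krt19 (-0.072) in untreated old against young bladders, Krt8 (-0.0093) with D + Q set against untreated old mice, and Krt5 (-0.029), Krt7 (-0.048), Krt8 (-0.052) and Krt19 (-0.049) in D + Q-treated against vehicle-treated bladders. With limma, Krt15 (-0.014) turned in untreated old against middle-aged bladders, Krt14 (-0.099) and Krt19 (-0.017) in untreated old against young bladders, and Krt7 (-0.0033), Krt8 (-0.0079) and Krt19 (-0.0073) in D + Q-treated against vehicle-treated bladders. Krt5 in untreated old against middle-aged bladders was 0.0021 without a filter and 0.0020 with at least 10 counts in every bladder, and Krt8 in D + Q-treated against vehicle-treated bladders was -0.00059 with DESeq2 and -0.00073 with RLE size factors. With the replicate block, Krt14 (-0.38) turned in untreated old against young bladders, Krt17 (0.063) with vehicle, and Krt5 (-0.14), Krt7 (-0.064), Krt8 (-0.052) and Krt19 (-0.11) in D + Q-treated against vehicle-treated bladders. With the block by description number, Krt5 (0.054) turned in untreated old against middle-aged bladders, Krt14 (-0.38) in untreated old against young bladders, Krt14 (0.69) and Krt15 (0.027) with water, Krt17 (0.086) with vehicle, and Krt5 (-0.11), Krt7 (-0.058), Krt8 (-0.023), Krt19 (-0.057) and Krt20 (0.031) in D + Q-treated against vehicle-treated bladders. On leaving out each bladder, values of both signs were met for Krt5 (-0.079 to 0.072) and Krt15 (-0.027 to 0.085) in untreated old against middle-aged bladders, for Krt14 (-1.24 to 0.57), Krt8 (-0.032 to 0.0099), Krt18 (-0.054 to 0.026) and Krt19 (-0.027 to 0.068) in untreated old against young bladders, for Krt14 (-1.25 to 1.12) and Krt15 (-0.12 to 0.090) with water, Krt17 (-0.39 to 0.072) with vehicle, Krt15 (-0.12 to 0.047) with D + Q against no treatment in old age, and Krt5 (-0.093 to 0.085), Krt14 (-0.014 to 0.82), Krt7 (-0.035 to 0.042), Krt8 (-0.047 to 0.037), Krt19 (-0.054 to 0.055) and Krt20 (-0.095 to 0.057) with D + Q against vehicle. The cause was not tested.

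Over all genes, 1811 calls in middle-aged against young bladders (45.9% higher) became 6285 (3.85% higher) when scaled to epithelial genes, 716 with the replicate block, 893 with the block by description number, 2858 with all 6 groups in a single fit and 728 to 2794 on leaving out each bladder. In untreated old against middle-aged bladders 4110 (54.3% higher) became 6854 (94.6% higher) and 2519 with all 6 groups in a single fit. In untreated old against young bladders the share of higher calls went from 50.5% to 32.4%. With water, 173 (48.6% higher) became 703 with DESeq2, 99 without a filter, 364 (3.02% higher) when scaled to epithelial genes, 37 to 199 on leaving out each bladder and 0 with limma, with the replicate block by either number and with all 6 groups in a single fit. The first count fell to between 728 and 1176 without young replicate 1, 2 or 6 or middle-aged replicate 1, 2, 3 or 5 and rose to 2794 without young replicate 4, and the count with water fell to between 37 and 68 without untreated old replicate 1, 2, 5 or 6 or water-treated old replicate 1, 4 or 5. Replicate numbers did not pair the bladders: correlations of same-numbered bladders lay between -0.37 and 0.26, and 8 of 35 pairs matched best with their own number. For 6 bladders the descriptions give another number than the titles, and the check and block by description number were added after the data were seen: its correlations lay between -0.37 and 0.32, with 8 of 35 pairs matched best. By neither number were all pairs of any comparison above 0.1. Depth limits Krt13, Krt14 and Krt17, at 0 to 314 counts.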
